A study of Mus musculus with 20 samples.

Results

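The genes described are the potassium channel genes of mouse hippocampal neurons, chosen by symbol: every gene whose name in the scanner files begins with Kcn and a further letter, read from a probe well above background in the sample channel on at least 5 of the 20 arrays. Of 84 such genes on the array, 67 met the background condition, out of 19334 genes tested in all. The other 17 were not tested, and 10 of them were above background on no array. Among those 17 were Kcnh7, an ERG channel, Kcnn3, a calcium-activated channel, and Kcnj2, an inward rectifier.

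Dissociated hippocampal neurons were kept for 21 days in culture and then treated for 24 h. The groups were 100 µM AP5, a competitive antagonist of NMDA receptors, NVP-AAM077 (NVP) at 100 nM, an antagonist with a preference for receptors containing Grin2a, 1 µM of a compound called Ro25 here, and vehicle (control), with 5 arrays in each. Each antagonist was used at 1 dose, and the doses differ between antagonists. No subunit preference is given for Ro25, whose full code in the labels could not be matched to a known compound. On each array the sample RNA (Cy5) was set against a common mouse reference RNA (Cy3), and all values below are log2 ratios of sample over reference or differences between such ratios. Whether the 5 arrays of each group stand for separate cultures is not in the labels, so the p-values reflect only the variation among these samples, possibly technical. In such bulk RNA, fewer cells of a type and less RNA per cell cannot be told apart.

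Potassium channels let potassium leave or enter a cell and so set its resting potential, the shape of its action potentials and how often it fires. Voltage-gated channels of the Kv families open on depolarisation, calcium- and sodium-activated channels open after a rise of those ions inside the cell, inward rectifiers pass current near the resting potential, and two-pore-domain channels carry a standing leak. Silent subunits conduct nothing alone and change the gating of Kv2 channels, and auxiliary subunits alter the gating or the delivery of pore subunits. In hippocampal neurons NMDA receptors admit calcium at active synapses, and calcium-dependent transcription follows.

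Promoter sequence is shown because several of these genes moved the same way and NMDA receptor signalling is known to reach the cyclic AMP response element through calcium. Given are the 250 bases before the start of the 3 genes lower with AP5 against control for which RefSeq's promoter table (GRCm38.p6) held an entry, with the cyclic AMP response element half-site in capitals. Both strands were searched for the half-site TGACG and for the full element TGACGTCA, which contains the half-site on each strand.
Kcnn1, chr8:70863259-70863508, minus strand: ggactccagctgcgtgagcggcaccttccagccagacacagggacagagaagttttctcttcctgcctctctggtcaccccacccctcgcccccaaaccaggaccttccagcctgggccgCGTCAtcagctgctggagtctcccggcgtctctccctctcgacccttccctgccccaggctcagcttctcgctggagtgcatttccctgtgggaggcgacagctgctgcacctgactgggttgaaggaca
Kcng3, chr17:83631896-83632145, minus strand: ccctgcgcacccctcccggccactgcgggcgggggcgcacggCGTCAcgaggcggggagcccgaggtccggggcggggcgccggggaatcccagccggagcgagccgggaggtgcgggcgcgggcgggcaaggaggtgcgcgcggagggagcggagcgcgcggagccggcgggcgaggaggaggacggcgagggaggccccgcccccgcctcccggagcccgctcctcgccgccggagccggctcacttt
Kcnh8, chr17:52602459-52602708, plus strand: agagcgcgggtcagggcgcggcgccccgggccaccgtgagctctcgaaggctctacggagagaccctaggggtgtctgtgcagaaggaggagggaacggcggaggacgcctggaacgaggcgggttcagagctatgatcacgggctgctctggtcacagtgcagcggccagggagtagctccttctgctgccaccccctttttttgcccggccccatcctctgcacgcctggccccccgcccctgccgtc
Kcnn1, shown at the first of its starts, held 1 half-site 130 bases before its start and Kcng3 held 1 at 208 bases. Both were on the strand opposite to the one printed, and the Kcnh8 window held none. The window before the other listed start of Kcnn1, which is not printed, held none either. The full element was in 0 of the 71 promoters of the 49 members listed and the half-site in 10 of them (14.1%), against 1.55% and 17.8% of all 32851 promoters in the table. The other 18 members were not in the table.

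Of the 20 arrays, 1 stood furthest apart. On array AP5 1 the median potassium channel gene lay at -0.43 relative to the control mean and 61 of 67 members were below it, whereas the other 4 AP5 arrays had medians between -0.049 and 0.041. It was the lowest AP5 array for 51 of 67 members. Its log2 ratios were also compressed over all genes, with a slope of 0.889 on the control mean and a median absolute deviation of 0.83, against 0.98 to 1.07 on the other arrays. The mean of 12 pan-neuronal markers on AP5 1 was -0.49 from the control mean, and that of 12 astrocyte markers was -0.95. Over the 5 AP5 arrays these means ran from -0.49 to 0.15 for pan-neuronal and from -0.95 to 0.51 for astrocyte markers, against -0.19 to 0.16 and -0.44 to 0.20 over the control arrays. All 12 genes of each list were measured. Among the control arrays, control 5 had a median of -0.18 over the members, with 54 of 67 below the control mean. It was the lowest control array for 34 of 67 members, and its slope over all genes was 0.957. The part of these differences in the results was not tested. The counts of members called with AP5 and the calls on single members are given with and without AP5 1. Calls on genes that are not members are given with all arrays only. Markers of neurons and of glia were both above the common reference. On the control arrays the list means were, for pan-neuronal markers, log2 ratios of 4.32 to 4.67, for excitatory ones 2.75 to 3.11, for inhibitory ones 3.64 to 3.86, for astrocyte ones 3.33 to 3.97 and for the oligodendrocyte lineage 2.35 to 2.71. Microglial means were -2.02 to -1.81 and fibroblast and mural means -3.49 to -3.14. Of these lists and those of oligodendrocyte lineage, endothelial and ependymal cells, AP5 against control called Celf4, Csf1r and Kdr as higher and Col1a2 as lower.

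**Figure D1:**
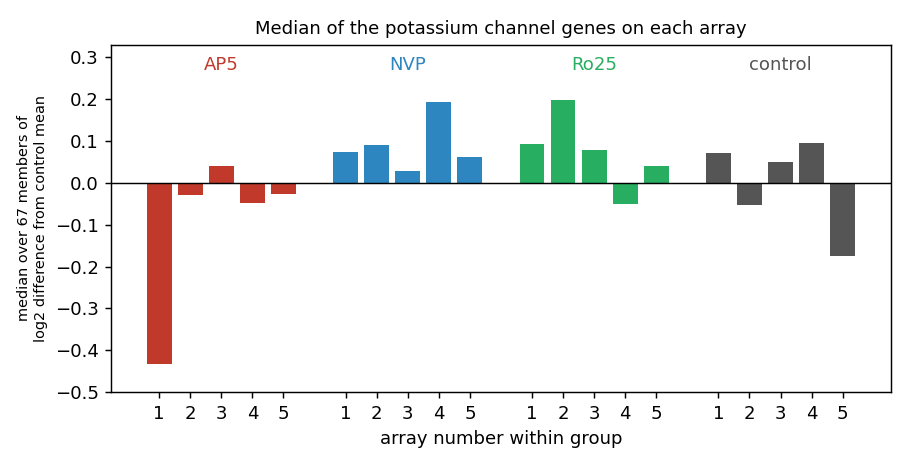
Bars give, for each array (x axis, numbered within its group), the median over the 67 members of the log2 difference from the control mean (y axis, log2). Array AP5 1 is at -0.43, and all other arrays lie between -0.18 and 0.20.

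The antagonists' action was checked on 3 genes that neurons switch on with activity. Arc, a synaptic immediate early gene, had log2 ratios of 0.21, 0.95, 0.10, 0.15 and 0.36 on the AP5 arrays, against 2.92, 3.05, 3.04, 2.97 and 3.02 on the control arrays. The groups did not overlap, and the difference was -2.65 (SE 0.12, adjusted p = 2.71e-11, limma). Bdnf, a neurotrophin, and Ptgs2, a prostaglandin synthase, differed by -1.61 (adjusted p = 5.59e-08) and -1.32 (adjusted p = 1.14e-07) with AP5. With NVP and Ro25, Arc differed from control by -0.23 (adjusted p = 0.872) and -0.43 (adjusted p = 0.686). Every NVP and Ro25 value of Arc was still below every control value, the highest being 2.90 and 2.72. Bdnf differed by -0.26 (adjusted p = 0.834) with NVP and -0.31 (adjusted p = 0.991) with Ro25. Ptgs2 differed by -0.40 (adjusted p = 0.484) and -0.61 (adjusted p = 0.0716) in the same order, by limma. All 3 genes were thus lower with both, and none passed.

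In vehicle-treated control cultures most potassium channel genes were richer than in the reference RNA. The control mean was above the reference for 60 of 67 members, by more than 1 on the log2 scale for 38 and by more than 3 for 19. Kcnd2, an A-type channel of dendrites, had a control log2 ratio of 7.03 ± 0.56 (SD, n = 5), and Kcna1, an axonal Kv1 subunit, one of 6.76 ± 0.18. Kcnj10, the main inward rectifier of astrocytes, had 5.29 ± 0.19, and Kcnmb4, the neuronal auxiliary subunit of large-conductance calcium-activated channels, 5.20 ± 0.13. Below the reference were 7 members, among them Kcnk6 at -1.29 ± 0.056 and Kcnq1ot1, a non-coding transcript of the Kcnq1 locus that the symbol rule admits, at -2.70 ± 0.39. These levels are a description, since dyes were not swapped and a ratio of sample to reference holds dye bias.

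The first comparison asks how a day of NMDA receptor blockade with AP5 left the potassium channel genes. With AP5, 7 of 67 members were lower than in control (10.4%) and none was higher, at an adjusted p under 0.05 by limma across all genes; over all genes 6.12% were called and 3.59% were called lower. The 7 were Kcnv1 and Kcng3 among the silent subunits, Kcnh3 and Kcnh8 among the ELK channels, Kcnq3, Kcnn1 and Kcnk6. Their differences ran from -0.28 to -0.81, with a median size of 0.532. Over all 67 members the median difference was -0.061, against -0.012 over all genes, and 38 were below 0 (56.7%, against 53.5% of all genes). At an unadjusted p under 0.05 there were 17 members, all lower, against 17.8% of all genes in either direction and 10.2% lower. The groups did not overlap for 5 members (Kcng3, Kcnh3, Kcnk6, Kcnn1 and Kcnv1), against 6.42% of all genes.

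The count and the split of directions depended on processing. Without AP5 1, 8 members were lower and 2 higher (6.29% of all genes called), the median of the members became 0.0099 and 33 were below 0. Without control 5, 9 were lower and none higher (4.99% of all genes called), the median became -0.088 and 47 were below 0. On the scanner's own processed signals 4 were lower and 2 higher (7.94% of all genes called), and the median of the members became 0.13. In the authors' deposited value table, which held 61 of the members, there were 7 lower and 4 higher (9.07% of all genes called) with a median of 0.030. With no background subtraction 7 were lower and 2 higher (8.63% of all genes called) with a median of 0.0031. Kcng3 met the background condition through NVP, Ro25 and control arrays alone, so its entry among the members depended on the groups where it was higher. With probes above background on at least 15 arrays, which leaves out Kcng3, 6 of 63 members were lower and none higher (7.12% of all genes called).

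**Figure D2:**
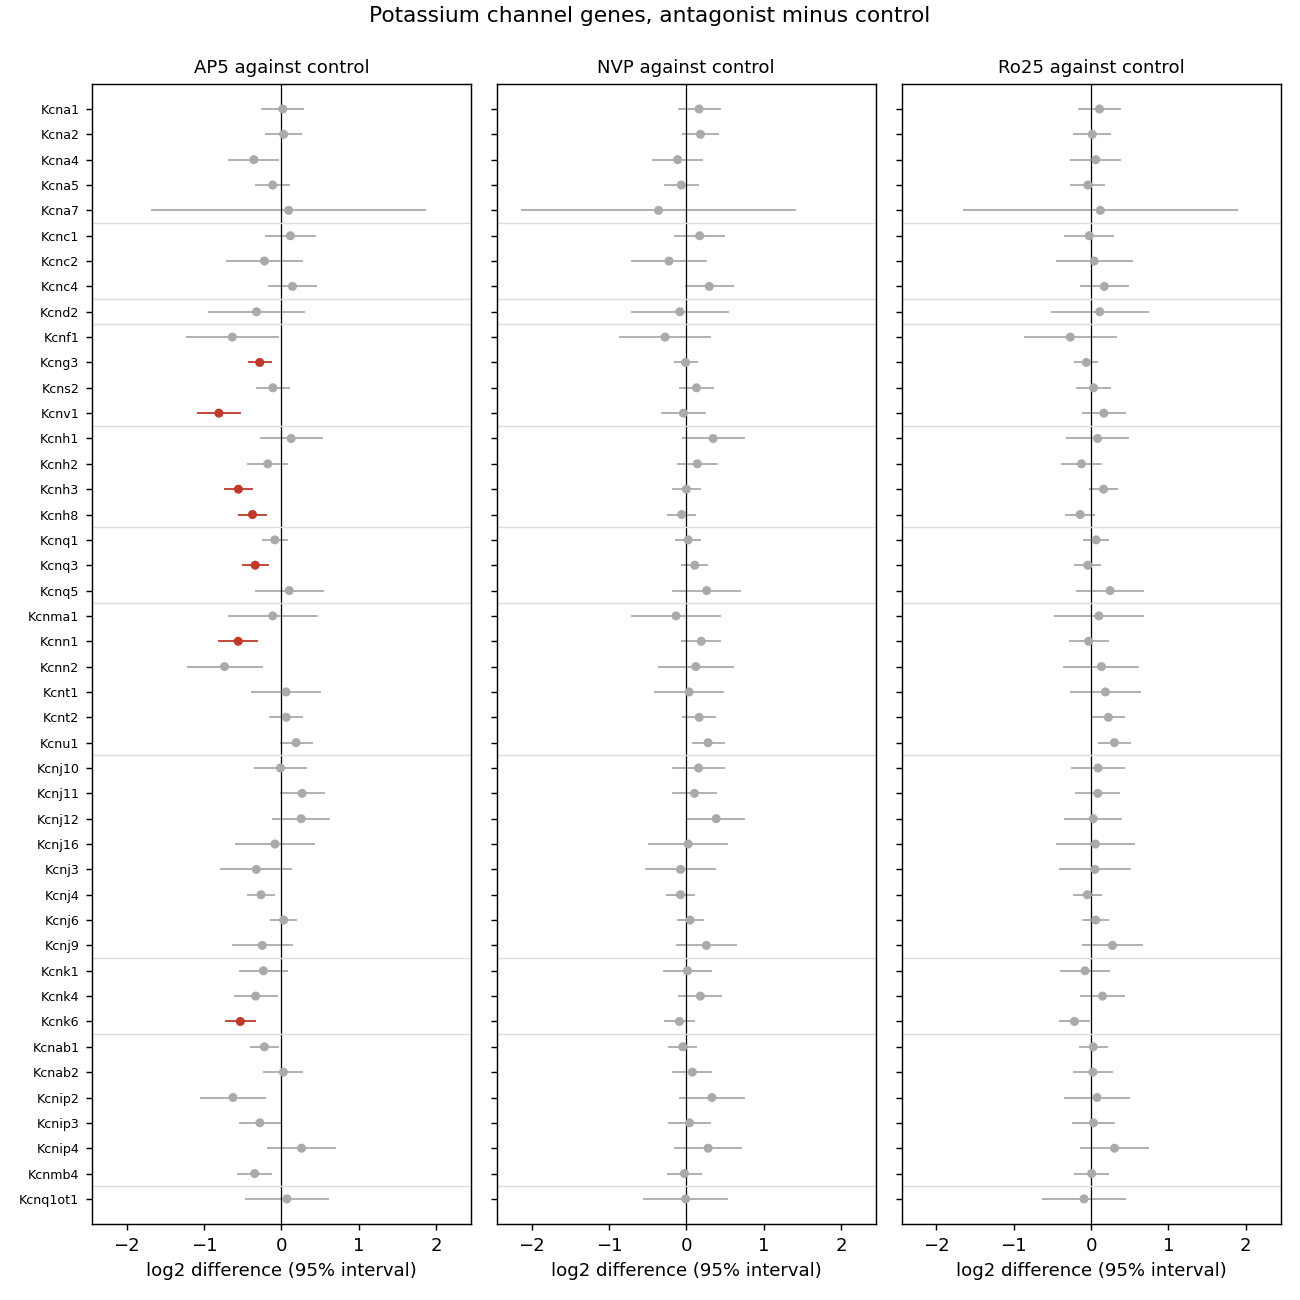
Points give the log2 difference of each antagonist from control (x axis) for 44 of the 67 members (rows, grouped by subfamily with grey lines between), with 95% intervals; colour marks an adjusted p under 0.05. Coloured points occur with AP5, for 7 members from -0.28 to -0.81, and not with NVP or Ro25.

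Kcnv1, a silent subunit that joins Kv2 channels and shifts their gating, had log2 ratios of 0.40, 0.87, 1.31, 0.87 and 0.90 on the AP5 arrays, against 1.78, 1.79, 1.42, 1.94 and 1.46 on the control arrays. The AP5 values all lay under the lowest control value. The difference was -0.81 (SE 0.14, adjusted p = 0.000892), a 1.75-fold lower ratio, and without AP5 1 it was -0.69 (adjusted p = 0.00181). A second probe of Kcnv1 gave -0.71 (adjusted p = 0.000364). The probe used lies at chr15:45153403-45153462 on mouse assembly mm7, per the file headers. Kcng3, another silent partner of Kv2 channels, had log2 ratios of 0.17, 0.17, 0.12, -0.012 and 0.21 on the AP5 arrays, against 0.44, 0.35, 0.66, 0.39 and 0.21 on the control arrays. Every AP5 value was below every control value, but the gap was small. The Kcng3 probe (at chr17:81882461-81882520) was well above background on 0 of 5 AP5 arrays, 3 of 5 NVP arrays and 2 of 5 Ro25 arrays and on 5 of 5 control arrays, so the AP5 level is a bound. The point estimate was 1.21-fold lower with AP5 (measured means 0.13 and 0.41, adjusted p = 0.0263 by limma). That is the smaller of the fold in the sample channel (1.23) and the fold of the ratios (1.21), and is open to dye bias. Neither fold is a minimum for Kcng3, since the difference varied with the arrays left out. Its call did not depend on AP5 1, without which it was -0.29 (adjusted p = 0.0349), but was lost when AP5 3, AP5 4, control 1, control 3 or control 4 was left out, with -0.28 (adjusted p = 0.0539), -0.24 (adjusted p = 0.0826), -0.27 (adjusted p = 0.0623), -0.22 (adjusted p = 0.0727) and -0.29 (adjusted p = 0.0528) in that order. The Kcng3 call passed in 19 of 32 settings of processing or arrays left out. Of the 7 silent subunits measured, Kcnv1 and Kcng3 passed. Kcnf1, whose product joins Kv2 channels, differed by -0.63 (SE 0.29, adjusted p = 0.245) and Kcns2 by -0.11, or by -0.39 and -0.026 without AP5 1.

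**Figure D3:**
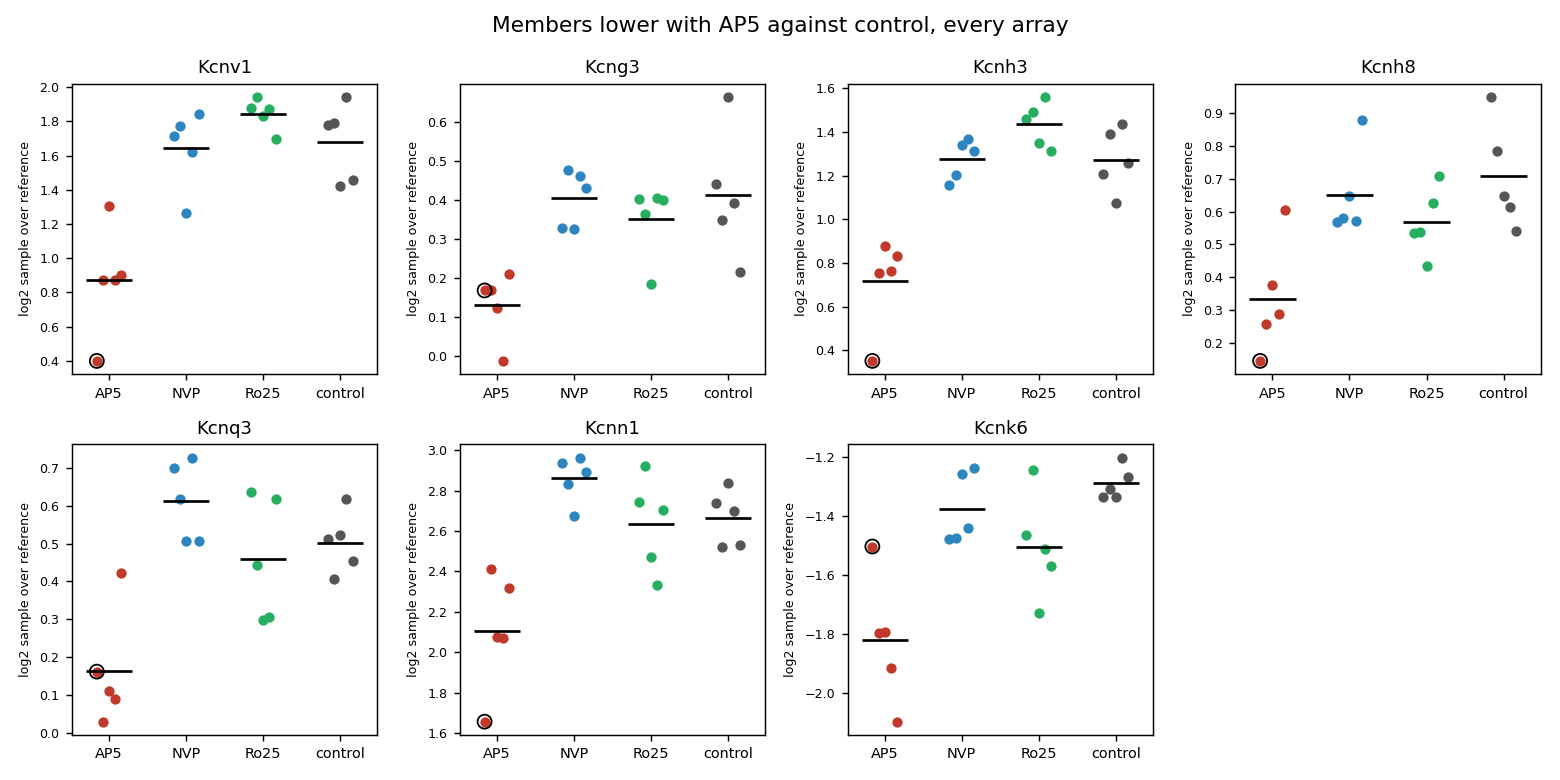
Each point is the log2 ratio of sample over reference on one array (y axis), for the 7 members lower with AP5 against control, in AP5, NVP, Ro25 and control arrays (x axis, 5 each); black bars are group means and the ring marks AP5 1. In every panel the AP5 mean is the lowest, and for Kcnk6 the ringed array is the highest of the AP5 arrays.

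The ELK channels open at voltages below the firing threshold. Kcnh3, an ELK channel of forebrain pyramidal neurons, had log2 ratios of 0.35, 0.75, 0.88, 0.76 and 0.83 on the AP5 arrays, against 1.21, 1.39, 1.07, 1.44 and 1.26 on the control arrays. All 5 AP5 values were under all 5 control values, with AP5 1 far under the other 4. The difference was -0.56 (SE 0.092, adjusted p = 0.000621), and without AP5 1 it was -0.47 (adjusted p = 0.000789). A second probe of Kcnh3 gave -0.63 (adjusted p = 0.0039). The probe used lies at chr15:99226442-99226501 (mm7). Kcnh8, its relative, had log2 ratios of 0.14, 0.26, 0.38, 0.29 and 0.60 on the AP5 arrays, against 0.95, 0.78, 0.65, 0.61 and 0.54 on the control arrays. The groups overlapped, since AP5 5 was above the lowest control value. By limma the difference was -0.37 (SE 0.091, adjusted p = 0.0164), or -0.33 (adjusted p = 0.0419) without AP5 1, at chr17:51056514-51056573. Without control 1 the call was lost, at -0.31 (adjusted p = 0.0552). It was also lost with median centring, on the scanner's processed signals, in the value table and with no offset. With slide as a fixed block, on the first scan day and with only the compared groups fitted it was lost too. It passed in 26 of 34 settings of processing or arrays left out. The Kcnh8 probe was well above background on 3 of 5 AP5 arrays and on 5 of 5 control arrays. Of the 6 members of the EAG, ERG and ELK families, these 2 passed. Kcnh1, an EAG channel, differed by 0.13 (adjusted p = 0.84) and Kcnh2, an ERG channel, by -0.18 (adjusted p = 0.53), or by 0.24 and -0.20 without AP5 1.

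Channels of the KCNQ family carry the M-current, which holds back repetitive firing. Kcnq3, a subunit of that channel, had log2 ratios of 0.16, 0.029, 0.11, 0.090 and 0.42 on the AP5 arrays, against 0.51, 0.41, 0.52, 0.62 and 0.45 on the control arrays. AP5 5 overlapped the control values and the other 4 AP5 arrays were under them. The Kcnq3 probe (chr15:66079094-66079153) was well above background on 1 of 5 AP5 arrays and on 5 of 5 control arrays. By limma the difference was -0.34 (SE 0.084, adjusted p = 0.0172), and -0.34 (adjusted p = 0.0286) without AP5 1. Without control 4 the call was lost, at -0.31 (adjusted p = 0.0558). It was also lost with median centring, on the scanner's processed signals and with no background subtraction. With slide as a fixed block and on the first scan day it was lost too. It passed in 28 of 34 settings of processing or arrays left out, with differences from -0.73 to -0.12. Kcnq5, another member of the family, differed by 0.10 (adjusted p = 0.888), or by 0.36 without AP5 1. Of 4 KCNQ members, 1 passed.

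Small-conductance calcium-activated channels of the Kcnn genes carry part of the after-hyperpolarisation. Kcnn1, one of them, had log2 ratios of 1.66, 2.41, 2.07, 2.07 and 2.32 on the AP5 arrays, against 2.74, 2.52, 2.84, 2.70 and 2.53 on the control arrays. The groups did not overlap. The difference was -0.56 (SE 0.12, adjusted p = 0.00853) at chr8:69298011-69298070, and -0.45 (adjusted p = 0.0174) without AP5 1. Kcnn2, the small-conductance channel most linked to hippocampal pyramidal cells, had log2 ratios of 4.16, 5.64, 5.84, 6.02 and 5.99 on the AP5 arrays, against 6.30, 6.46, 6.20, 6.36 and 5.99 on the control arrays. AP5 1 was far under the other 4 AP5 arrays, of which 1 overlapped the lowest control array. The difference missed the threshold, at -0.74 (SE 0.24, adjusted p = 0.0746), but passed without AP5 1, at -0.39 (adjusted p = 0.0146), without AP5 4, at -0.86 (adjusted p = 0.0481), and without AP5 5, at -0.85 (adjusted p = 0.0466). A second probe of Kcnn2 gave -0.51 (adjusted p = 0.191). On the scanner's own processed signals Kcnn2 turned to 0.14. Of the 7 members grouped as calcium- and sodium-activated by symbol (Kcnma, Kcnn, Kcnt and Kcnu), whatever their gating, Kcnn1 alone passed with all arrays. Kcnma1, the large-conductance channel, differed by -0.11 (adjusted p = 0.908) and Kcnt1, a sodium-activated channel, by 0.060 (adjusted p = 0.943); both signs turned under at least 1 other setting, and without AP5 1 they differed by 0.078 and 0.33.

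Channels of the two-pore-domain family carry leak. Kcnk6, a two-pore-domain channel, had log2 ratios of -1.50, -1.80, -1.79, -1.92 and -2.10 on the AP5 arrays, against -1.33, -1.31, -1.33, -1.20 and -1.27 on the control arrays. AP5 1 was the highest of the AP5 arrays and still under every control value. The difference was -0.53 (SE 0.10, adjusted p = 0.00162) at chr7:26161668-26161727, and -0.61 (adjusted p = 0.00022) without AP5 1. Kcnk4, a leak channel opened by stretch and lipids, differed by -0.33 (SE 0.14, adjusted p = 0.19) and Kcnk1 by -0.23 (adjusted p = 0.49), or by -0.16 and -0.035 without AP5 1. Of the 7 members of this family, 1 passed.

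No member of the other families passed in AP5 against control: none of 6 Kv1, 2 Kv2, 4 Kv3 and 2 Kv4 genes, 10 inward rectifiers or 11 auxiliary subunits. Their medians were 0.023 for Kv1, -0.24 for Kv2, 0.11 for Kv3 and -0.27 for Kv4, 0.0086 for inward rectifiers and -0.044 for auxiliary subunits. Kcna4, an A-type Kv1 channel, differed by -0.36 (SE 0.16, adjusted p = 0.231), or by -0.17 without AP5 1. Kcnj4, an inward rectifier of forebrain neurons, differed by -0.26 (SE 0.088, adjusted p = 0.0876) and Kcnmb4 by -0.35 (SE 0.11, adjusted p = 0.0669). A second probe of Kcnj4 gave -0.67 (adjusted p = 0.0323 over all probes), and the adjusted p of the probe used was 0.0986 on that scale. Kcnj4 passed without AP5 2, at -0.31 (adjusted p = 0.0451), and Kcnmb4 without AP5 4, at -0.40 (adjusted p = 0.0448), or without control 5, at -0.40 (adjusted p = 0.0439). Kcnab1, a Kv beta subunit, differed by -0.22 (adjusted p = 0.194) and Kcnip3, a Kv4 partner, by -0.28 (adjusted p = 0.273). Without AP5 1, Kcnmb4 differed by -0.22, Kcnab1 by -0.15 and Kcnip3 by -0.15. The astrocyte channels Kcnj10 and Kcnj16 differed by -0.012 and -0.083, and by 0.19 and 0.20 without AP5 1. Kcnip4, a Kv4 partner named after its values were seen, passed as higher without AP5 1, at 0.53 (adjusted p = 0.0197), and so did Kcnu1, a channel known from sperm, at 0.30 (adjusted p = 0.0257); with all arrays they differed by 0.26 (SE 0.21, adjusted p = 0.606) and 0.19 (SE 0.10, adjusted p = 0.356).

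**Figure D4:**
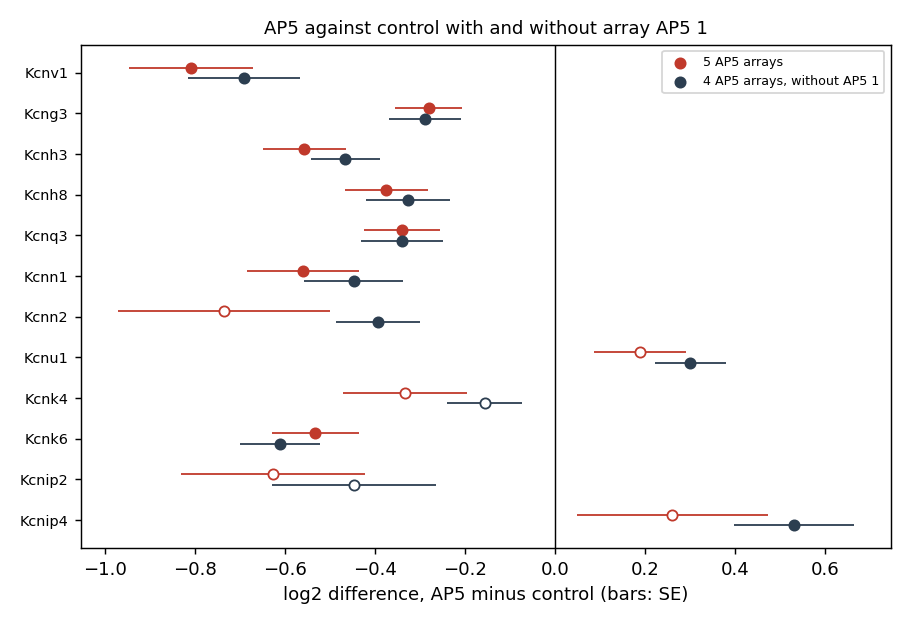
Log2 difference of AP5 from control (x axis) for 12 members (rows), with all 5 AP5 arrays and without array AP5 1; bars are SE, and filled points pass an adjusted p under 0.05. Kcnn2, Kcnu1 and Kcnip4 are filled without AP5 1 and open with it.

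NVP and Ro25 were each set against the same control arrays that AP5 was, so the 3 comparisons with control share samples. No member passed with NVP, where 0% of all genes were called, and none with Ro25, where 0.0155% were. At an unadjusted p under 0.05, limma gave 3 members with NVP, against 5.88% of all genes, and 3 with Ro25, against 4.34%. The medians of the members were 0.055 with NVP and 0.058 with Ro25, against -0.011 and 0.0015 over all genes. Below 0 were 21 members with NVP (31.3%, against 54.6% of all genes) and 20 with Ro25 (29.9%, against 49.3%). These counts varied with the arrays and the fit. Without control 5, 25 members were below 0 with NVP and 33 with Ro25, and the medians of the members were 0.053 and 0.012. With slide as a fixed block 41 were below 0 with NVP and 37 with Ro25. The intervals still allow changes. Kcnv1 differed by -0.036 with NVP (95% interval -0.32 to 0.25) and by 0.17 with Ro25 (-0.12 to 0.45). Kcnh3 differed by 0.0024 with NVP (-0.19 to 0.19) and by 0.16 with Ro25 (-0.029 to 0.35).

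The lowest unadjusted p of any member belonged to Kcnu1 with both. Kcnu1 had log2 ratios of 0.95, 1.40, 1.02, 1.12 and 1.04 on the NVP arrays and 1.13, 1.17, 1.04, 1.17 and 1.13 on the Ro25 arrays, against 0.83, 0.74, 0.81, 0.95 and 0.78 on the control arrays. It differed by 0.28 (SE 0.10, adjusted p = 0.698) with NVP and by 0.30 (SE 0.10, adjusted p = 0.817) with Ro25. Kcnj12, an inward rectifier, differed by 0.39 (SE 0.18, adjusted p = 0.834) with NVP and Kcnt2, a sodium-activated channel, by 0.22 (SE 0.11, adjusted p = 1) with Ro25. Kcnk6 differed by -0.21 (SE 0.10, adjusted p = 1) with Ro25.

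Set against NVP, AP5 left 11 of 67 members lower (16.4%) and none higher, where 5.78% of all genes were called and 3.09% called lower. The AP5 arrays are the same ones as in the comparison with control. The 11 included the 7 above with Kcnn2, Kcnip2 and Kcnk4. Without AP5 1 the count was 10 (5.38% of all genes called), and without NVP 2 or NVP 4 it was 7 (3.87 and 3.96%). With probes above background on at least 15 arrays, which leaves out Kcng3, 10 of 63 members were lower (6.88% of all genes called). The median of the members was -0.15, against -0.0011 over all genes, and -0.044 without AP5 1. Below 0 were 52 members (77.6%, against 50.4% of all genes), or 40 without AP5 1. This count depended on processing. It was 35 on the scanner's processed signals (median of the members -0.014) and 37 with no background subtraction (median -0.021). In the value table it was 37 of 61, and with no offset added at background subtraction it was 56. At an unadjusted p under 0.05 there were 21, all lower, against 18% of all genes in either direction and 9.79% lower. The groups did not overlap for 11 members, against 6.96% of all genes. Second probes of Kcnip3, Kcnj4 and Kcnj9 passed against NVP, at -0.58 (adjusted p = 0.0461), -0.74 (adjusted p = 0.0198) and -0.81 (adjusted p = 0.035), where the probes used did not, and a second probe of Kcnn2 did not, at -0.66 (adjusted p = 0.0762).

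Kcnip2, a calcium-binding partner of Kv4 channels, had log2 ratios of 1.37, 2.53, 1.99, 2.23 and 2.32 on the AP5 arrays, against 3.00, 2.50, 2.99, 2.93 and 2.15 on the control arrays. On the NVP arrays it had 3.10, 3.04, 2.97, 3.22 and 2.90 and on the Ro25 arrays 3.23, 2.92, 2.30, 2.53 and 2.97. Every AP5 value was under every NVP value, and AP5 2, AP5 4 and AP5 5 lay within the range of the control arrays. The difference from NVP was -0.96 (SE 0.20, adjusted p = 0.00664), or -0.78 (adjusted p = 0.0143) without AP5 1, at chr19:45690907-45690966. Against control it was -0.63 (SE 0.20, adjusted p = 0.0813), and it passed there without AP5 2, at -0.74 (adjusted p = 0.044), or without control 5, at -0.77 (adjusted p = 0.0291). Kcnk4 had 0.91, 1.76, 1.68, 1.94 and 1.80 on the AP5 arrays, against 2.18, 2.18, 2.04, 2.14 and 2.12 on the NVP arrays, with no overlap, a difference of -0.52 (SE 0.14, adjusted p = 0.0285), or -0.34 (adjusted p = 0.0198) without AP5 1 (chr19:6745563-6745622). The Kcnk4 call was lost without AP5 3, NVP 1, NVP 2 or NVP 4, with -0.53 (adjusted p = 0.0507), -0.50 (adjusted p = 0.0642), -0.50 (adjusted p = 0.0682) and -0.51 (adjusted p = 0.0599) in that order.

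Kcnn2 had 6.45, 6.31, 6.30, 6.51 and 6.36 on the NVP arrays and 6.28, 6.37, 6.39, 6.56 and 6.38 on the Ro25 arrays, above every AP5 value. It differed by -0.86 (SE 0.24, adjusted p = 0.0338) from NVP and by -0.87 (SE 0.24, adjusted p = 0.0478) from Ro25, and by -0.52 (adjusted p = 0.00223) and -0.53 (adjusted p = 0.00245) without AP5 1; on the scanner's own processed signals both differences were above 0, at 0.039 and 0.013. Against NVP the Kcnn2 call was lost without NVP 1, NVP 2, NVP 3 or NVP 4 (adjusted p from 0.0617 to 0.0791), and against Ro25 it was lost for 17 of the 20 arrays left out (adjusted p from 0.0513 to 0.104).

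**Figure D5:**
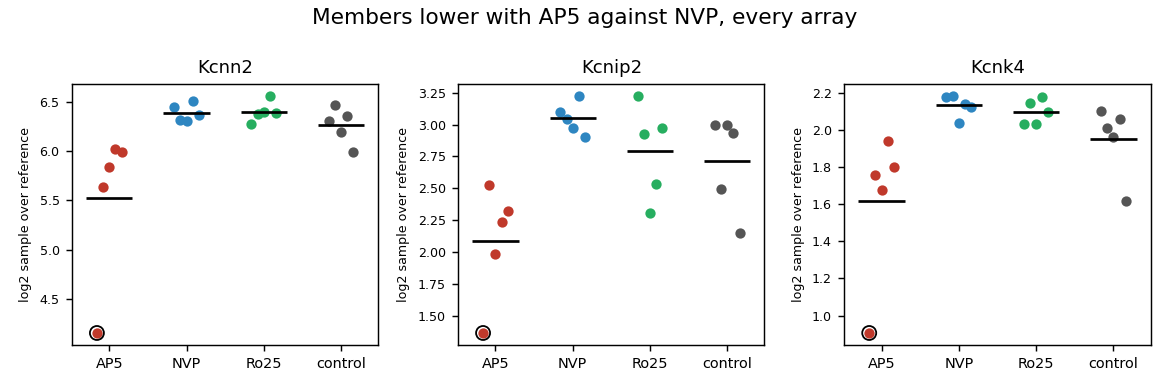
Each point is the log2 ratio of sample over reference on one array (y axis) for 3 members that passed against NVP and not against control, in AP5, NVP, Ro25 and control arrays (x axis, 5 each); bars are group means and the ring marks AP5 1. The ringed array is the lowest AP5 array in all 3 panels.

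The 7 members called against control differed from NVP by -0.77 (SE 0.14, adjusted p = 0.00153) for Kcnv1, -0.56 (SE 0.092, adjusted p = 0.000738) for Kcnh3 and -0.75 (SE 0.12, adjusted p = 0.000794) for Kcnn1. The others were -0.44 (SE 0.10, adjusted p = 0.0076) for Kcnk6, -0.45 (SE 0.084, adjusted p = 0.00215) for Kcnq3, -0.32 (SE 0.091, adjusted p = 0.0455) for Kcnh8 and -0.27 (SE 0.074, adjusted p = 0.0327) for Kcng3. In the sample channel the point estimate for Kcng3 was 1.13-fold lower. Without AP5 1 the differences from NVP were -0.65 for Kcnv1, -0.47 for Kcnh3, -0.64 for Kcnn1, -0.52 for Kcnk6, -0.45 for Kcnq3 and -0.28 for Kcng3, all past the threshold. The Kcnh8 call was lost for 14 of the 20 arrays left out, AP5 1 among them, at -0.27 (adjusted p = 0.109), and that of Kcng3 without AP5 3, AP5 4, NVP 2, NVP 4 or NVP 5 (adjusted p from 0.0529 to 0.0927). Kcnv1 had 1.72, 1.77, 1.26, 1.62 and 1.84 on the NVP arrays and 1.88, 1.94, 1.83, 1.87 and 1.70 on the Ro25 arrays. AP5 3 overlapped the lowest NVP array and no AP5 array overlapped Ro25. Kcnh3 had 1.16, 1.20, 1.34, 1.37 and 1.31 on the NVP arrays and 1.46, 1.49, 1.35, 1.56 and 1.31 on the Ro25 arrays, all above every AP5 value. Kcnn1 had 2.94, 2.83, 2.67, 2.96 and 2.89 on the NVP arrays and 2.75, 2.92, 2.47, 2.33 and 2.70 on the Ro25 arrays, of which Ro25 4 overlapped the AP5 values.

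Set against Ro25, AP5 left 4 of 67 members lower (5.97%) and none higher, where 3.1% of all genes were called and 1.97% called lower. Below 0 were 52 members (77.6%, against 52% of all genes), or 41 without AP5 1. The count below 0 was 38 both on the scanner's processed signals and with no background subtraction. In the value table it was 31 of 61, and with no offset added at background subtraction it was 57. At an unadjusted p under 0.05 there were 17, all lower, against 13.2% in either direction and 7.82% lower, and the groups did not overlap for 5, against 3.95%. Those that passed were Kcnv1, at -0.97 (SE 0.14, adjusted p = 0.000189), Kcnh3, at -0.72 (SE 0.092, adjusted p = 6.08e-05), Kcnn1, at -0.53 (SE 0.12, adjusted p = 0.0205), and Kcnn2. Without AP5 1 the first 3 were -0.86 (adjusted p = 0.00033), -0.63 (adjusted p = 5.01e-05) and -0.42 (adjusted p = 0.0471) in that order. There were then 5 members, with Kcnk6 added at -0.40 (adjusted p = 0.0169) (2.81% of all genes called), and without Ro25 1 or Ro25 2 there were 2 (2.36 and 2.64%). The Kcnn1 call was lost in both of these, at -0.50 (adjusted p = 0.0578) and -0.46 (adjusted p = 0.0605). Between NVP and Ro25 no member passed, nor any other gene (0%); at an unadjusted p under 0.05 there were 2 members by limma, among them Kcnh2 at 0.27 (SE 0.13, adjusted p = 0.84), against 5.91% of all genes. Below 0 were 33 members (49.3%, against 53.6% of all genes). In all, 11 members passed in at least 1 of the 6 comparisons.

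The arrays lay on 7 slides, none of which held both AP5 and control arrays, so slide and group cannot be told apart there without going through other groups. With slide as a fixed block, a path through the NVP and Ro25 arrays, no member passed in AP5 against control, where 0.212% of all genes did. The median of the members in that fit was -0.46, against -0.047 over all genes. Kcnv1 was -0.81 (adjusted p = 0.234), Kcnh3 -0.54 (adjusted p = 0.231) and Kcnk6 -0.47 (adjusted p = 0.209). With slide as a random block 7 members passed (6.9% of all genes). On slide 2, AP5 5 differed from the mean of 3 NVP arrays by -0.65 for Kcnv1, -0.47 for Kcnh3, -0.71 for Kcnk6, -0.51 for Kcnn1, -0.21 for Kcng3, -0.19 for Kcnq3 and 0.0036 for Kcnh8, with a median of -0.10 over the members. On slide 6, AP5 1 differed from Ro25 2 by -1.54 for Kcnv1, -1.14 for Kcnh3, -1.26 for Kcnn1, -0.39 for Kcnh8, -0.28 for Kcnq3, -0.26 for Kcnk6 and -0.20 for Kcng3, with a median of -0.63 over the members. On that slide the last 4 of these were smaller in size than the members' median. Within the first scan day, which leaves out AP5 1 and AP5 3, 4 members were lower with AP5 against control (Kcnv1, Kcnh3, Kcnk6 and Kcnn1) and Kcnu1 was higher, at 0.33 (adjusted p = 0.0398), where 4.72% of all genes were called.

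Genes of potassium handling without a Kcn symbol formed a list of 31, of which 28 were measured: channel partners, sodium-potassium pump subunits, chloride cotransporters, channel regulators and intracellular channels. With AP5 against control 1 was lower and 1 higher, with a median of 0.063, a share near the 6.12% of all genes called. Amigo1, an adhesion protein that joins Kv2 channels, had log2 ratios of 0.89, 1.52, 0.93, 1.39 and 1.39 on the AP5 arrays, against 1.68, 1.54, 1.74, 1.76 and 1.44 on the control arrays. AP5 2 overlapped the control values, and the difference was -0.41 (SE 0.12, adjusted p = 0.0388). Tmem175, a lysosomal potassium channel, had 1.05, 1.06, 1.04, 0.94 and 0.97 on the AP5 arrays, against 0.79, 0.66, 0.80, 0.89 and 0.65 on the control arrays. The groups did not overlap, and the difference was 0.25 (SE 0.066, adjusted p = 0.0236). Neither passed with NVP or Ro25 against control. Values without AP5 1, the lowest AP5 array for Amigo1, are not given for either gene.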

How the data were processed

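The labels' protocols give Cy5 for the sample and Cy3 for a universal mouse reference RNA on every array, without a dye swap. The authors deposited each array's scanner output, holding linear intensity per spot and the scanner's log10 ratio (Feature Extraction 10.7.3.1 in the file headers, 11.0 in the submitters' processing notes), and a value table of log2 ratios. Over 11133 probes well above background in both channels, the table followed the scanner's ratio, turned to log2, its slope lying between 0.834 and 0.858 and its correlation between 0.987 and 0.991, so its direction is sample over reference. Column medians were 0.0302 to 0.0626, and its normalization and centring stay unknown.

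From the intensities, normexp with an offset of 50 was applied, loess followed within each array, control and outlier-flagged spots were left out, spots of a probe were averaged, and each gene was read from its brightest kept probe (28494 probes kept of 41174). Between 58.6 and 69.3% of probes exceeded background well in Cy5, and the number of arrays limits the precision. One limma 3.58.1 model (R 4.3.3) over 20 arrays gave the 6 comparisons, two-sided, with Benjamini-Hochberg adjustment over all 19334 genes. Samples were grouped by their labels. On simulated data for AP5 against control (19298 genes), 81% of 100 genes changed 1.5-fold and 96% of 100 changed 2-fold were called. Those genes were drawn from all genes, with noise independent between genes and no array that stood apart. The median within-group SD was 0.22 over the members and 0.15 over all genes, so these rates do not hold for the members. Sample-channel folds for dim probes were read in Cy5 after Aquantile scaling of the loess values. Array, slide and day alternatives are in the closing section.

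Members, lists and naming rule were all chosen with earlier results of these data known. The rule takes members past the threshold in any comparison, the 20 lowest p with AP5 against control and 5 lowest in each other comparison, 2 per subfamily, members above background on at least 3 arrays of one group and on none of another, and a list of channels given by name. The protein sequences that the design planned were not used here, and some channel genes are counted but not reported here by name. RefSeq's table (GRCm38.p6) gave names; all 123 probes of the members carried the same symbol there, and 8 probes named Kcn only there were left out.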

Additional observations from a re-analysis of the deposited data

Results flagged for a closer look

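Within groups of 5 arrays, the gap between the lowest or highest array and its nearest neighbour was compared with the group's range, for the 11 members that passed in any comparison and for the median of all members; 7 of 48 groups exceeded the critical share of 0.71, and chance flags about 1 in 20 groups. Kcnh3 on array AP5 1 was 0.35, the lowest of the AP5 arrays, with the nearest other array at 0.75. Kcnk4 on array AP5 1 was 0.91, the lowest of the AP5 arrays, with the nearest other array at 1.68. Kcnn2 on array AP5 1 was 4.16, the lowest of the AP5 arrays, with the nearest other array at 5.64. The median of the members on array AP5 1 was -0.43, the lowest of the AP5 arrays, with the nearest other array at -0.049. Kcnh8 on array NVP 5 was 0.88, the highest of the NVP arrays, with the nearest other array at 0.65. Kcng3 on array Ro25 3 was 0.18, the lowest of the Ro25 arrays, with the nearest other array at 0.36. Kcnk4 on array control 5 was 1.61, the lowest of the control arrays, with the nearest other array at 1.96. The array AP5 1 accounts for 4 of the 7, and its narrower range of ratios and marker values are given in the report; the part of these in the outlying values was not tested.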

How the results depend on the processing

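The direction of the 22 calls held under all 34 settings except for Kcnn2 on the scanner's processed signals, and each call passed in 11 to 34 of them; AP5 against Ro25 for Kcnv1 passed in 34, AP5 against Ro25 for Kcnn2 in 13 and AP5 against NVP for Kcnh8 in 11. Kcng3 had 32 settings. In AP5 against control Kcnk6, Kcnn1 and Kcnv1 passed in 32, Kcnh3 in 31, Kcnq3 in 28, Kcnh8 in 26 and Kcng3 in 19.

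Brackets in this paragraph give the share of all genes called. The count of members that passed in AP5 against control, 7 in the report (6.12%), was 3 with median centring (0.853%) and 3 with normexp and no offset (4.8%). It was 11 in the value table (9.07%), 0 with slide as a fixed block (0.212%), and from 5 to 10 (4.29 to 6.53%) when each array was left out. In AP5 against NVP, 11 in the report (5.78%), it was 6 with median centring (0.626%), 4 on the scanner's processed signals (6.53%) and 6 with normexp and no offset (4.51%). It was 2 with slide as a fixed block (0.559%) and 6 on the first scan day (3.28%). With an array left out it ran from 7 to 11 (3.87 to 6.93%), 7 without NVP 2 or NVP 4. In AP5 against Ro25, 4 in the report (3.1%), it was 2 with normexp and no offset (2.44%) and 7 with no background subtraction (4.23%). It was 2 with only the compared groups fitted (1.22%) and 7 with arrays scaled to one spread (3.2%). With an array left out it ran from 2 to 6 (2.36 to 3.17%), 2 without Ro25 1 or Ro25 2. NVP against control, Ro25 against control and NVP against Ro25 stayed at 0 under every setting run. The scaling to one spread was added after the data were seen; the cause of these changes was not tested.

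With the replicate block, by the numbers in the titles, 7, 9 and 5 members passed in AP5 against control, NVP and Ro25. Of all genes 6.4, 6.1 and 3.4% were called there. Kcnmb4 entered and Kcng3 left in the first. Over 30 same-numbered pairs the correlations of deviations ran from -0.447 to 0.763 and 11 were above 0.1, so the numbers were not taken to pair the samples. The arrays numbered 5 did deviate together: all 6 pairs lay between 0.568 and 0.763, each array correlating best with its own number, and the cause was not tested.

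Among the genes reported by name, signs opposite to the reported ones appeared as follows, for values that had passed no test except those of Kcnn2 against NVP and Ro25. With median centring: in AP5 against control Kcnj10 0.14; in NVP against control Kcnh3 -0.0042. On the scanner's processed signals: in AP5 against control Kcnc2 0.33, Kcnd2 0.15, Kcnj10 0.22, Kcnj16 0.42, Kcnj3 0.31, Kcnj9 0.41, Kcnk1 0.084, Kcnk4 0.13, Kcnn2 0.14; in NVP against control Kcng3 0.83; in Ro25 against control Kcng3 0.41, Kcnq3 0.036; in AP5 against NVP Kcnn2 0.039; in AP5 against Ro25 Kcnn2 0.013; in NVP against Ro25 Kcnh3 0.17, Kcnk4 -0.086. In the value table: in AP5 against control Kcnc2 0.056, Kcnd2 0.15, Kcnj10 0.12, Kcnj16 0.11, Kcnj3 0.011, Kcnma1 0.053, Kcns2 0.10; in NVP against Ro25 Kcnh3 0.083. With normexp and no offset: in AP5 against control Kcna1 -0.043, Kcna2 -0.064, Kcnt1 -0.12; in NVP against control Kcng3 0.10, Kcnv1 0.20; in NVP against Ro25 Kcnk4 -0.039. With no background subtraction: in AP5 against control Kcnc2 0.040, Kcnj10 0.12, Kcnj16 0.11, Kcnma1 0.0031; in NVP against control Kcng3 0.012, Kcnh3 -0.039; in Ro25 against control Kcnip2 -0.012, Kcnq3 0.0081. With slide as a fixed block: in AP5 against control Kcna1 -0.24, Kcna2 -0.43, Kcna5 0.13, Kcnab2 -0.82, Kcnc1 -0.93, Kcnc4 -0.87, Kcnf1 0.15, Kcnh1 -1.19, Kcnip3 0.088, Kcnip4 -0.25, Kcnj11 -0.31, Kcnj12 -0.16, Kcnj6 -0.33, Kcnq1ot1 -0.94, Kcnq5 -0.48, Kcnt1 -0.80, Kcnt2 -0.24, Kcnu1 -0.014; in NVP against control Kcnc4 -0.43, Kcnh1 -0.60, Kcnh8 0.052, Kcnk4 -0.061, Kcnk6 0.21, Kcnn1 -0.18, Kcnn2 -0.35, Kcnv1 0.075; in Ro25 against control Kcnip2 -0.082; in NVP against Ro25 Kcnk4 -0.20. With slide as a random block: in NVP against control Kcnh3 -0.00036; in NVP against Ro25 Kcnn2 0.011. On the first scan day: in AP5 against control Kcnj10 0.23, Kcnj16 0.13, Kcnq1ot1 -0.18. With arrays scaled to one spread: in AP5 against control Kcnj10 0.020; in NVP against control Kcnh3 -0.014; in Ro25 against control Kcnn2 -0.032; in NVP against Ro25 Kcnn2 0.074.

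Leaving out each array in turn gave, where the sign turned at least once, Kcnc2 in AP5 against control -0.35 to 0.031, Kcnj10 in AP5 against control -0.13 to 0.19, Kcnj16 in AP5 against control -0.21 to 0.20, Kcnma1 in AP5 against control -0.25 to 0.078, Kcnq1ot1 in AP5 against control -0.13 to 0.23, Kcnab2 in AP5 against control -0.052 to 0.10, Kcna1 in AP5 against control -0.059 to 0.12, Kcna2 in AP5 against control -0.031 to 0.093, Kcnq5 in AP5 against control -0.0086 to 0.36, Kcnt1 in AP5 against control -0.083 to 0.33, Kcng3 in NVP against control -0.057 to 0.055, Kcnn2 in NVP against Ro25 -0.043 to 0.030, Kcnh3 in NVP against control -0.047 to 0.043, Kcnv1 in NVP against control -0.10 to 0.059, Kcnip2 in Ro25 against control -0.063 to 0.20, Kcnn1 in Ro25 against control -0.10 to 0.044, Kcnh8 in NVP against control -0.12 to 0.0023, Kcnj6 in AP5 against control -0.0064 to 0.073, Kcng3 in Ro25 against control -0.11 to 0.0020, Kcnt2 in AP5 against control -0.0011 to 0.16.

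Limits: signals near background, as for Kcng3, Kcnq3 and Kcnh8, lie close to the floor of the scanner, each group has 5 arrays, and AP5 and control share no slide.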

Other observations

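Kcna7, a Kv1 gene known from muscle and named after its values were seen, ranged from -0.050 to 3.97 over the 20 arrays, with a within-group SD of 1.49 against a median of 0.22 over the members. It had 0.56, 3.18, 0.73, 1.26 and 3.97 on the AP5 arrays, 2.95, -0.050, 0.78, 0.37 and 3.39 on the NVP arrays, 2.98, 0.92, 0.48, 1.76 and 3.71 on the Ro25 arrays and 0.27, 1.47, 0.70, 3.29 and 3.51 on the control arrays. High and low arrays occurred in every group, and the array numbered 5 was the highest in each. Galnt5, a glycosyltransferase gene, had the highest correlation with it of all genes over the 20 arrays, running from 0.14 to 3.30, with 0.47, 2.80, 0.65, 1.06 and 3.30 on the AP5 arrays and 0.22, 1.30, 0.63, 2.88 and 3.18 on the control arrays. Fscn3, Olfr430 and AK077046 also had ranges over 2 on the log2 scale across the arrays.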
